A study of Mus musculus with 10 samples.

Results

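On the way from ES cells to blood, 118 genes were lower in the haemangioblast (HB) than both in ES cells before it and in the first haemogenic endothelium (HE1) after it. They were taken from the authors' matrix of 15686 genes, which holds 1 CPM value per stage (CPM is the count of a gene relative to the library total), by asking for 10 CPM or more in both ES and HE1 and for the smaller of these values to be at least 3 times that in HB. In HB 81 of the 118 were under 10 CPM and 37 were still at 10 CPM or more, so that the dip is a lower level and not always a lack of expression. The 118 genes make up 0.752% of the matrix, and 8663 of its genes were at 10 CPM or more in both ES and HE1. Because the levels in ES, HB and HE1 chose the genes, these levels, and the calls of later stages against HB or HE1, are given below as a description that supports nothing, and what the rule did not use is the course of the genes in the later HE2 and HP cells.

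The data are nuclear RNA-seq of the mouse ES line HM-1 and of 4 populations made from it in serum, with 2 libraries per stage and 10 in all. ES cells grew on gelatin with LIF, and HB cells were purified by FLK1 from embryoid bodies that had floated for 3 d. A further 2.5 d of blast culture on gelatin, in medium with VEGF, IL-6 and D4T conditioned medium, gave KIT+ cells. These were sorted as HE1 (TIE2+ CD41-), HE2 (TIE2+ CD41+) and the haematopoietic progenitors HP (TIE2- CD41+). All stages come from 1 line. HB was the only stage taken straight from floating embryoid bodies, while the others were collected from cultures on gelatin. The medium also differed, as LIF was given to ES cells and VEGF and IL-6 to blast cultures, but none of them to embryoid bodies. Stage, medium and way of culture at collection therefore cannot be told apart. The libraries of a stage are described as biologically independent replicates.

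The haemangioblast is a mesodermal cell with the potential to form endothelium and blood. Its progeny first build an endothelium whose cells are spread, joined to their neighbours and attached to a basement membrane, and part of this endothelium then turns on RUNX1, loses its endothelial programme and releases round blood progenitors. ES cells also grow as attached, tightly joined colonies. Many genes of adhesion, matrix and the actin cytoskeleton are controlled by the transcription factors AP-1, TEAD and SRF. AP-1 stands for dimers of FOS and JUN proteins, and TEAD is the DNA-binding partner of YAP. Whether attachment or these factors have a part in the dip was not tested.

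Promoter sequences were available from RefSeq (GRCm38.p6, the assembly also called mm10) for 92 of the 118 genes, as 135 windows of 250 bases before and 50 bases after a transcription start. The AP-1 motif TGANTCA, read on both strands, was present in 15 of these 135 windows (11.1%), compared with 4.3% of the 8884 windows of genes at 10 CPM or more in ES and HE1 and 7.81% of all 32851 windows. The TEAD motif GGAATG was in 27 of the 135 windows, or 20%, and in 11.6% and 14.7% of the others. Shown here are 60 bases upstream of a RefSeq start of 5 genes whose windows hold one or both motifs, because the 2 motifs lie close together in 2 of them, and the 5 were chosen after their matches were seen. AP-1 and TEAD matches are in capitals. For Emp1 this start and the bases shown lie inside the gene as the count tables annotate it, which begins further upstream.
Emp1, chr6:135362761-135362820, + strand: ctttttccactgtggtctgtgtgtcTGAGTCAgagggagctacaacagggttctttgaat
Plaur, chr7:24462383-24462442, + strand: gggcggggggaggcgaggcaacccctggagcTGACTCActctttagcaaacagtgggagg
Tinagl1, chr4:130175253-130175312, - strand: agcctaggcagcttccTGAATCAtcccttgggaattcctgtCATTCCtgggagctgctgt
Fblim1, chr4:141606103-141606162, - strand: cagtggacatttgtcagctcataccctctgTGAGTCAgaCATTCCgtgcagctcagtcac
Vgll3, chr16:65815099-65815158, + strand: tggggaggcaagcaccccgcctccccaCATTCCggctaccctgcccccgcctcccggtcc

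In Fblim1 the AP-1 match begins 80 bases and the TEAD match 71 bases before the start, and in Tinagl1 they begin 174 and 149 bases before it. Plaur holds an AP-1 match 69 bases, Emp1 one 145 bases and Vgll3 a TEAD match 63 bases before the start. For the other motifs the share in the windows of the 118 genes is followed by that for genes at 10 CPM or more and by that for all windows. The NF-Y motif CCAAT was less frequent than in both, with 21.5% against 38.1% and 37.4%, and so was the E-box CACGTG with 5.19% against 11% and 7.15%. The ETS motif CCGGAAG had 8.15% against 20.5% and 8.86%, RUNX motifs (TGTGGT) 11.1% against 11.3% and 16.8%, and STAT motifs (TTCCNGGAA) 0.741% against 1.13% and 1.15%. The order depended on the background for the TATA box TATAAA, with 11.9% against 6.4% and 13.6%, the GC box GGGCGG, with 59.3% against 66.9% and 35.7%, and CRE motifs (TGACGTCA), with 2.22% against 3.46% and 1.79%. The CArG box, the motif bound by SRF, was added after the genes were known and was in 1 window (0.741%), against 1.29% and 1.63%. These shares are descriptions, a match of letters is not a bound site, and windows of alternative starts of a gene can overlap.

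**Figure D1:**
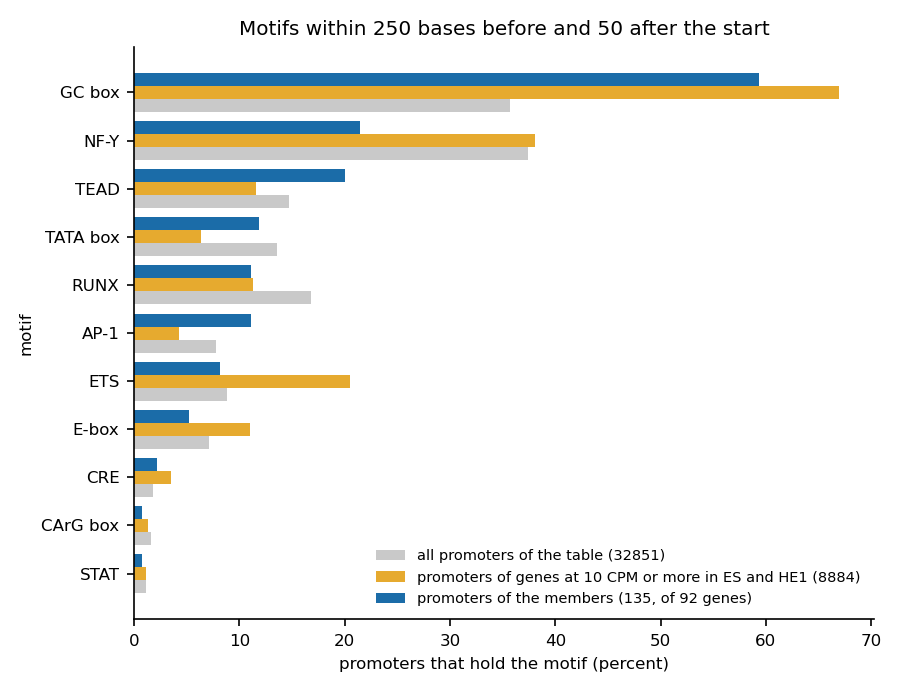
Share of promoter windows that hold each motif on either strand, in percent, for the 118 genes (135 windows of 92 genes), for genes at 10 CPM or more in ES and HE1, and for all windows of the table. Against genes at 10 CPM or more, AP-1, TEAD and TATA matches are more frequent and ETS, NF-Y and E-box matches less frequent, and against all windows TATA matches are not more frequent and ETS matches are nearly level.

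Over the 118 genes the median CPM started at 46.9 in ES, was 6.20 in HB, came back to 38.1 in HE1 and ended at 25.6 and 23.6 in HE2 and HP, while the median of the whole matrix lay between 20.6 and 21.8 in every stage. The smaller of ES and HE1 was a median of 4.79 times HB, at least 5 times HB in 57 genes and at least 10 times in 27. In each of the 118 genes both ES and both HE1 libraries were above both HB libraries, with the narrowest gap, 1.58-fold, in Adgrg1, as was the case in 16.7% of the genes of the matrix. The edgeR fit called all 118 lower in HB than in ES and all 118 higher in HE1 than in HB, at an adjusted p under 0.05 and at least 2-fold, where 17.3% and 12.7% of all tested genes were called, and 11.5% and 8.19% in the opposite directions. As these are the contrasts of the rule, nothing is read from those counts. A total of 944 genes of the matrix were at 10 CPM or more in ES and at least 3 times HB, and the 118 are 12.5% of them. Likewise, 667 genes were at 10 CPM or more in HE1 and at least 3 times HB, and the 118 are 17.7% of these.

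All 118 genes are protein coding, and they lie on 19 chromosomes with 1 to 14 genes on each. Their median exon length of 5702 bases compares with 4964 bases for genes at 10 CPM or more in ES and HE1. Few were neighbours. Only 6 pairs lay within 500 kb of each other, the closest being Steap1 and Steap2 (41.7 kb apart) and Eppk1 and Plec (50.8 kb apart).

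The gene with the deepest dip was Anxa1 (chr19:20373428-20390944 in mm10), which codes for annexin A1, a calcium-dependent membrane-binding protein. It was at 19.96 and 21.1 CPM in ES, 0.311 and 0.0763 CPM in HB, 39.2 and 58.7 CPM in HE1, 35.8 and 22.8 CPM in HE2, and 32.0 and 30.7 CPM in HP. The HB values rest on 8 and 2 counts. On the summed counts ES was 119 times HB with a 95% exact counting interval of 64.5 to 248, which covers counting error only. Outside HB every library thus lay between 19.96 and 58.7 CPM.

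The 20 genes with the deepest dip included genes of secreted and surface proteins. Thbs1 (chr2:118111876-118127133), the matrix glycoprotein thrombospondin 1, had 265 and 281 CPM in ES, 8.36 and 4.47 CPM in HB, 437 and 712 CPM in HE1, 539 and 423 CPM in HE2, and 698 and 573 CPM in HP. Its level in HP was thus above that in ES. Plaur, the receptor of the urokinase plasminogen activator, was at 34.0 and 35.0 CPM in ES, 2.07 and 1.27 CPM in HB, 25.5 and 51.6 CPM in HE1, 26.5 and 11 CPM in HE2, and 17.4 and 18.6 CPM in HP. Both genes were at least 3 times HB in both later stages.

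Cell adhesion genes with a deep dip included Itga3, Npnt and Tinagl1. Itga3, the integrin subunit of a laminin receptor, was at 248 and 262 CPM in ES, 16.7 and 10.2 CPM in HB, 165 and 169 CPM in HE1, 117 and 44.8 CPM in HE2, and 72.4 and 55.8 CPM in HP. Npnt, the integrin ligand nephronectin, kept 12.3 and 10.0 CPM in HE2 and 9.34 and 12.2 CPM in HP against 1.33 and 0.808 CPM in HB. Tinagl1, a matrix protein, was close to the level limit of the rule with 10.6 CPM in both ES libraries.

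Other genes among the 20 have varied functions. Emp1, an epithelial membrane protein, went from 56.0 and 59.0 CPM in ES to 1.26 and 1.54 CPM in HB and to 27.2 and 47.2 CPM in HE1, and Gprc5a, an orphan G protein-coupled receptor that lies 278 kb from it, from 31.8 and 34.6 CPM to 1.45 and 0.930 CPM and to 16.2 CPM in both HE1 libraries. Slco4a1 (an organic anion transporter), S100a6 (a calcium-binding protein), Prss23 (a serine protease), Scrn1, Syt13 (a synaptotagmin), Tubb3 (a beta tubulin best known from neurons) and Nqo1 (a quinone reductase) were also at least 3 times HB in both HE2 and HP. Only Arc and Zfp462 of the 20 were under this limit in both. Zfp462, a zinc finger protein, was at 186 and 222 CPM in HE1, 73.2 and 31.7 CPM in HE2 and 39.9 and 45.6 CPM in HP, with 22.3 and 12.1 CPM in HB.

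**Figure D2:**
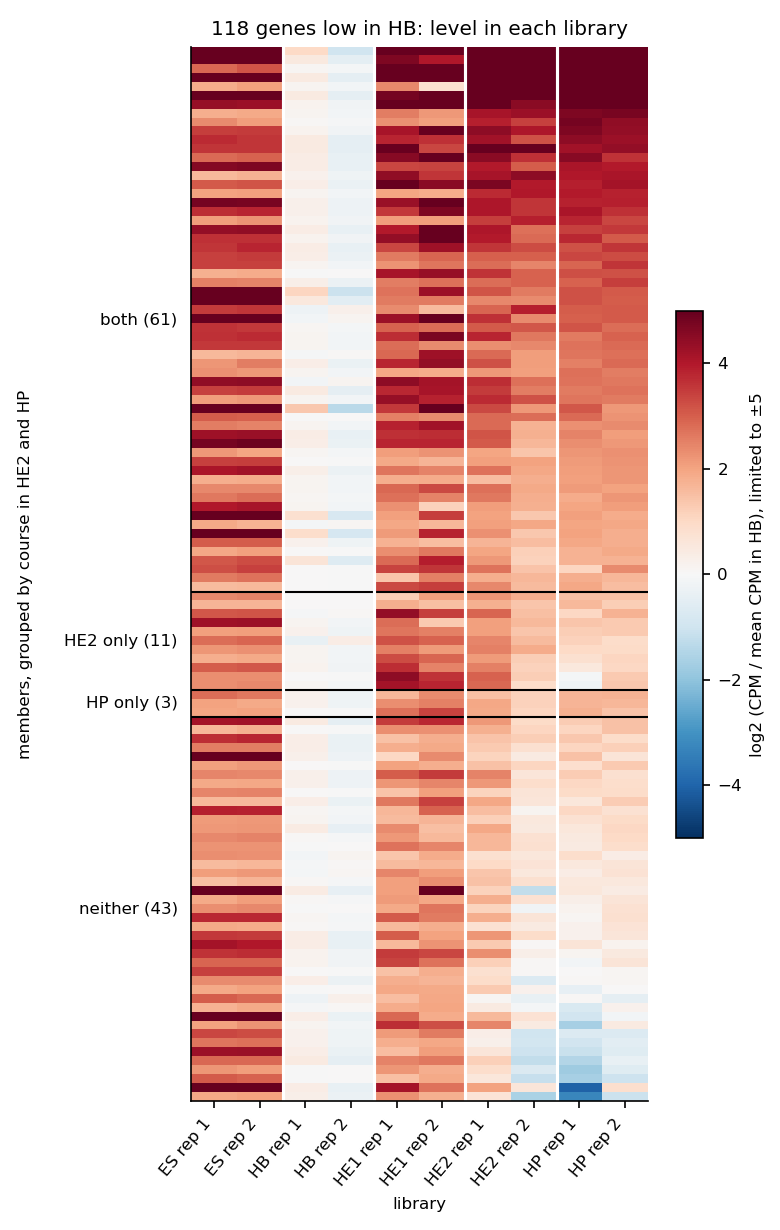
Level of the 118 genes (rows) in the 10 libraries (columns), as log2 of CPM over the mean CPM in HB, with rows grouped by whether HE2 and HP were at least 3 times HB and ordered within a group by HP over HB. The 61 genes of the upper group stay red in HE2 and HP, and the 43 genes of the lower group fade, more so in HE2 replicate 2 than in HE2 replicate 1.

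After HE1 the 118 genes took different courses, and the lower level was not limited to HB in all of them. In 61 genes (51.7%) both HE2 and HP were at least 3 times HB, in 11 (9.32%) only HE2, in 3 (2.54%) only HP, and in 43 (36.4%) neither. HB was the lowest of the 5 stages in 104 genes and was not in 14. The median of HE2 over HB was 3.63 (quartiles 2.35 and 8.12) and that of HP over HB 3.32 (1.54 and 8.23), where the medians over the matrix were 0.986 and 0.997. A lower level in HB is part of the rule, so these ratios are a description. For the other 549 genes that were at 10 CPM or more in HE1 and at least 3 times HB, but did not meet the ES condition, HE2 and HP were both at least 3 times HB in 34.4% and neither was in 47.7%.

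**Figure D3:**
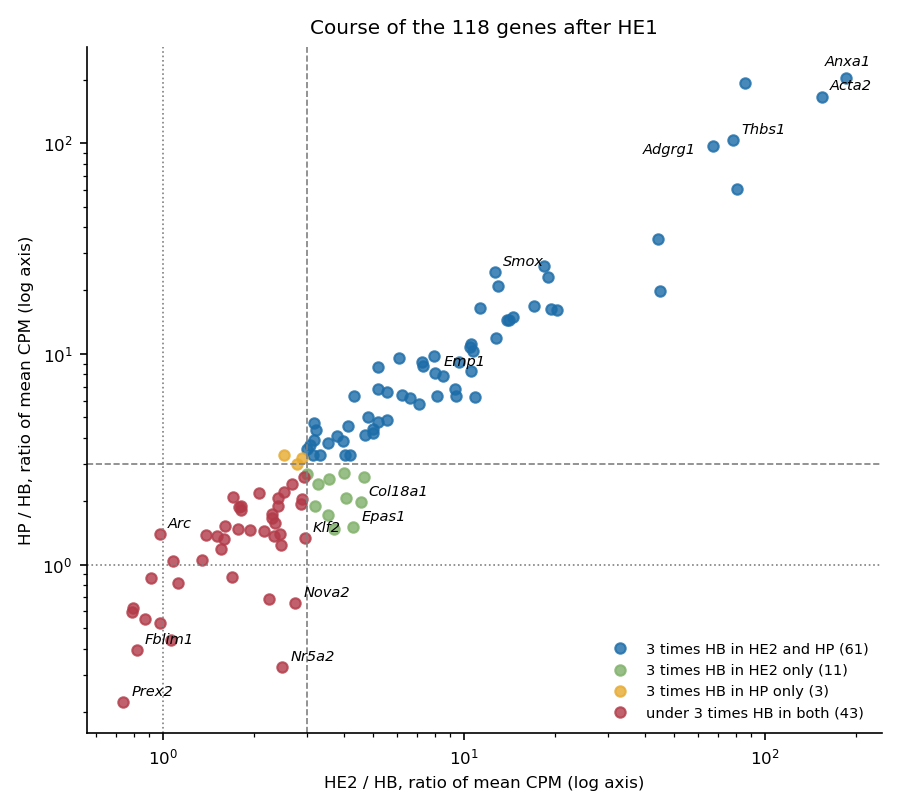
HE2 over HB against HP over HB, as ratios of mean CPM on log axes, for the 118 genes coloured by course, with dotted lines at 1 and dashed lines at 3. Anxa1 and Acta2 lie at the top right, and Prex2 and Fblim1 are under the HB level in HP, as is Nr5a2 through 1 of its HP libraries.

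The highest stage was ES in 56 genes, HE1 in 46, HE2 in 5 and HP in 11. All 16 genes that peaked in HE2 or HP belonged to the 61 that stayed high in both. Of the 43 genes under 3 times HB in both later stages, 30 had their peak in ES and 13 in HE1, and their median CPM was 10.7 in HB, 54.7 in HE1 and then 18.5 and 13.8 in the later stages. For the 61 genes these medians were 3.09, 30.1, 26.9 and 24.9 CPM.

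A small set of genes went on rising after HE1. Called higher than HE1 in both HE2 and HP were 7 genes, among them Smox, Smagp, Bcl3, Inpp5d, Ptk2b and Adgrg1, and no others of the 118 were called higher in either comparison. That is 5.93% of the 118 for each, beside 3.26% of all tested genes for HE2 against HE1 and 5.35% for HP against HE1. Since HE1 was used by the rule, the counts support nothing beyond themselves, and Smox, Smagp, Inpp5d and Ptk2b are named because they were called. Adgrg1 (chr8:94974751-95014217), an adhesion G protein-coupled receptor also called GPR56, was at 31.5 and 35.3 CPM in ES, 9.53 and 7.79 CPM in HB, 45.5 and 15.0 CPM in HE1, 428 and 784 CPM in HE2, and 974 and 721 CPM in HP. Both HE1 libraries were far below all 4 later ones, and the log2 change from HE1 to HP was 4.85 (SE 0.52).

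Ptk2b and Inpp5d code for signalling proteins of blood cells, the tyrosine kinase PYK2 and the inositol phosphatase SHIP1. Ptk2b (chr14:66153257-66281052) had 29.0 and 30.6 CPM in ES, 8.83 and 7.46 CPM in HB, 48.1 and 36.4 CPM in HE1, 142 and 158 CPM in HE2, and 207 and 218 CPM in HP, with no overlap between stages. Inpp5d had 48.1 and 49.6 CPM in ES, 13.1 and 10.9 CPM in HB, 47.6 and 43.4 CPM in HE1, and 158 to 192 CPM in the HE2 and HP libraries. Smox, a spermine oxidase, rose from 13.6 and 11.6 CPM in HE1 to 77.7 and 60.0 CPM in HP, and Smagp, a small transmembrane protein, from 18.2 and 17.9 CPM to 59.1 and 43.3 CPM. Bcl3, a regulator of NF-kappaB and the only gene of the JAK and STAT list among the 118, reached 19.9 and 39.0 CPM in HE2 against 13.6 and 7.98 CPM in HE1, with 21.7 and 21.9 CPM in HP.

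**Figure D4:**
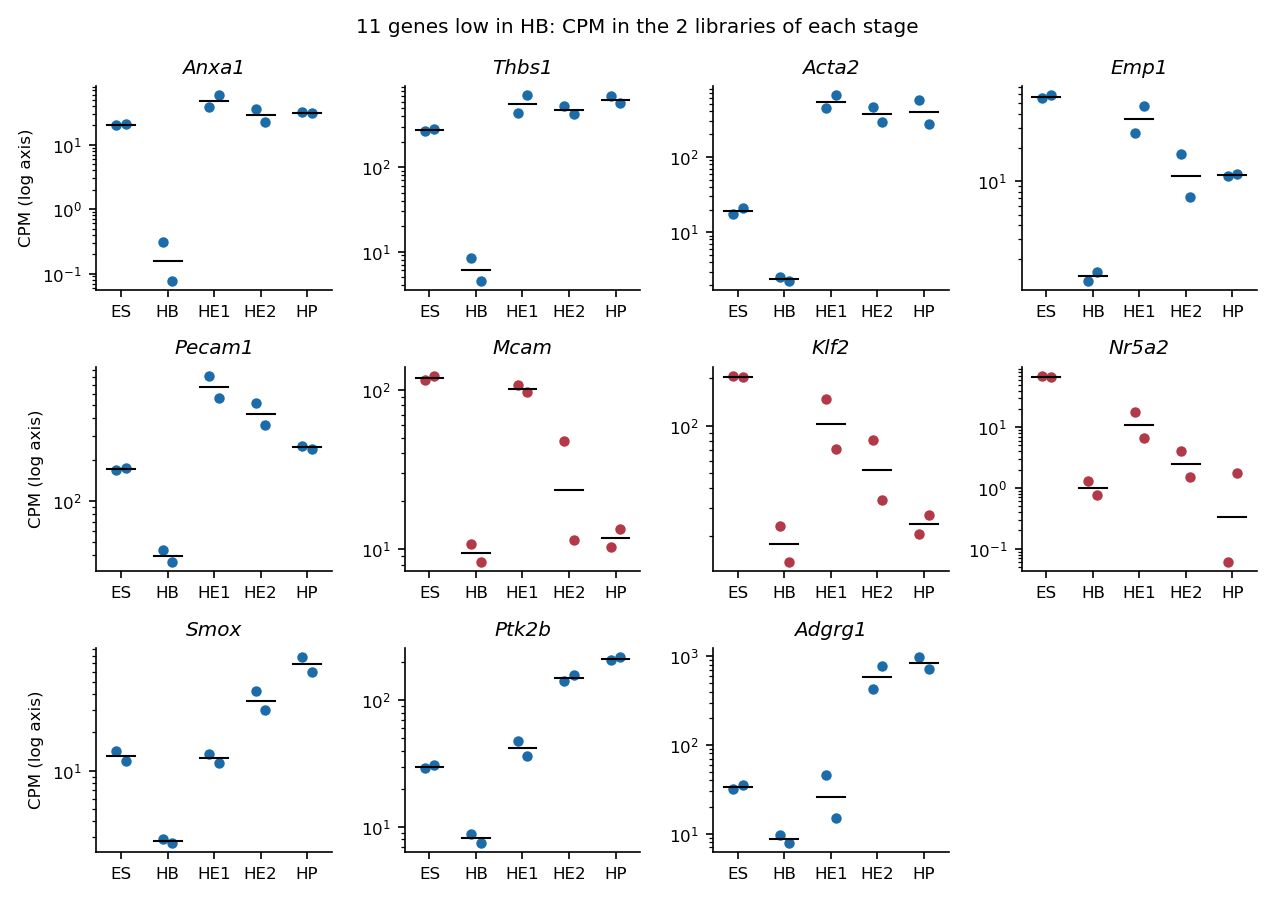
CPM on a log axis in the 2 libraries of each stage (points) with the stage value of the authors' matrix (line) for 11 of the 118 genes, blue where HE2 and HP were at least 3 times HB and red where neither was. Smox, Ptk2b and Adgrg1 climb beyond their ES level, and Mcam, Klf2 and Nr5a2 return towards HB.

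The rule chose the genes for a high level in HE1, which leans the comparisons with HE1 towards a fall, so the counts that follow are read only beside those of other genes chosen for HE1. HE2 was called lower than HE1 in 30 genes (25.4%, beside 5.39% of all tested genes) and HP in 59 (50.0%, beside 11.2%), with median log2 changes of -0.79 and -1.13. Both HP libraries were below both HE1 libraries in 78 genes and above both in 18. Over the matrix this was so in 33.1% and 32.6% of the genes. The other 549 genes that were high in HE1 relative to HB had shares of 19.7% called lower in HE2 and 55.7% in HP, near those of the 118. The count for HE2 depended on single libraries: it was 64 without HE2 replicate 1, 6 without HE2 replicate 2 and 10 without HE1 replicate 2, where 8.67%, 0.401% and 1.1% of all tested genes were called lower. For HP it was 35 without HP replicate 1, beside 4.66% of all tested genes.

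At the far end were genes whose HP level was under that of HB, 13 in all, and 8 for HE2. The 5 with the lowest ratio of HP to HB were Prex2 (0.223), Nr5a2 (0.327), Fblim1 (0.394), Npdc1 (0.439) and Cxcl16 (0.530). For Nr5a2 the ratio rests on HP replicate 1 with 2 counts (0.0604 CPM), and HP replicate 2, at 1.79 CPM, was above both HB libraries (1.30 and 0.778 CPM). Prex2, an activator of the small GTPase RAC, had 77.3 and 55.3 CPM in HE1 and 19.4 and 13.1 CPM in HB, but 1.68 and 7.48 CPM in HP. Fblim1, an adaptor that links filamin to focal adhesions, went from 134 and 125 CPM in ES and 15.9 and 16.1 CPM in HB to 45.5 and 59.2 CPM in HE1, 23.9 and 7.15 CPM in HE2, and 5.04 and 7.87 CPM in HP. It was the only one of the 118 called lower in HP than in HB, with a log2 change of -1.31 (SE 0.42), against 11.6% of all tested genes. With an HB or an HP library left out the log2 change was -1.05 to -1.62 and was not called, in fits where the stage with 1 library is assumed to vary like the other stages. Cxcl16, a chemokine, was at 0.761 and 1.61 CPM in HP and Npdc1 at 1.80 and 4.12 CPM.

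Beside this, 75 of the 118 genes (63.6%) were called higher in HP than in HB, as were 10.1% of all tested genes, which is again a comparison with a stage that the rule had chosen to be low. They included all 61 genes of the group that stayed high, 6 of the 11 with HE2 alone over the limit, all 3 with HP alone and 5 of the 43.

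Between HE2 and HP, the only pair of stages that the rule did not use, no gene was called by edgeR, neither among the 118 (0.0%) nor among all 22596 tested genes (0.0%). At an unadjusted p under 0.05 there were 7 higher and 23 lower in HP among the 118, and 670 higher and 1113 lower among all. The median log2 change was -0.24 over the 118 and 0.01 over all tested genes, with 33 above and 85 (72%) below 0. Of the other 549 genes that were high in HE1 relative to HB, 80.1% were below 0, with a median of -0.54. On the stage values of the matrix HP was under HE2 in 74 of the 118 (62.7%) and in 76.7% of the 549. Limma-voom called none of the 118 higher and 1 lower, beside 0.155% and 0.119% of all tested genes. DESeq2 called 1 higher and 4 lower, beside 0.656% and 1.17% of the genes to which it gave an adjusted p. Col18a1, collagen XVIII of basement membranes, is named because it had the smallest adjusted p of the 118. It was at 1593 and 1012 CPM in HE2 and 559 and 548 CPM in HP, and the log2 change of -1.26 (SE 0.24) had an edgeR adjusted p of 0.0908.

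The libraries of HE2 differed in the same direction for most of the 118 genes. Replicate 1 was above replicate 2 in 107 of them, by a median of 1.72-fold, while over all genes at 10 CPM or more in ES and HE1 the median was 0.966-fold and 43.3% were higher in replicate 1. In HE2 replicate 1, 88 genes were at least 3 times HB, and in replicate 2 there were 57. Replicate 2 was nearer to the mean of HP than to that of HE1, on the log scale, in 104 genes, and replicate 1 in 61. Markers differed between the libraries too, given here and below as sums of TMM-scaled CPM over all tested genes, a scale on which values are somewhat lower than those printed for the 118 genes. The summed level of 8 endothelial markers was 2377 CPM in replicate 1 and 1574 CPM in replicate 2, and that of 7 blood markers 1020 and 1403 CPM. Within these sets Kit (230 and 410 CPM) and Itga2b (505 and 469 CPM) went against their sums. The sums of erythroid (2227 and 1710 CPM), muscle (651 and 403 CPM), fibroblast (521 and 423 CPM) and endoderm markers (84.9 and 29.0 CPM) were higher in replicate 1, as were most of the 118 genes. Most of the muscle sum was Acta2 and Tagln, which are among the 118. Epor and Klf1 of the erythroid and Col1a2 of the fibroblast set were higher in replicate 2. The macrophage and myeloid sum, mostly Mpo, was also higher in replicate 2 (92.0 and 173 CPM). Without HE2 replicate 1 the median log2 change from HE2 to HP was 0.15, and without replicate 2 it was -0.55, with 21 of the 118 genes called lower, beside 1.95% of all tested genes. The share of these cell types in the 2 libraries was not tested, and in bulk RNA fewer cells of a type and less RNA per cell cannot be told apart.

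**Figure D5:**
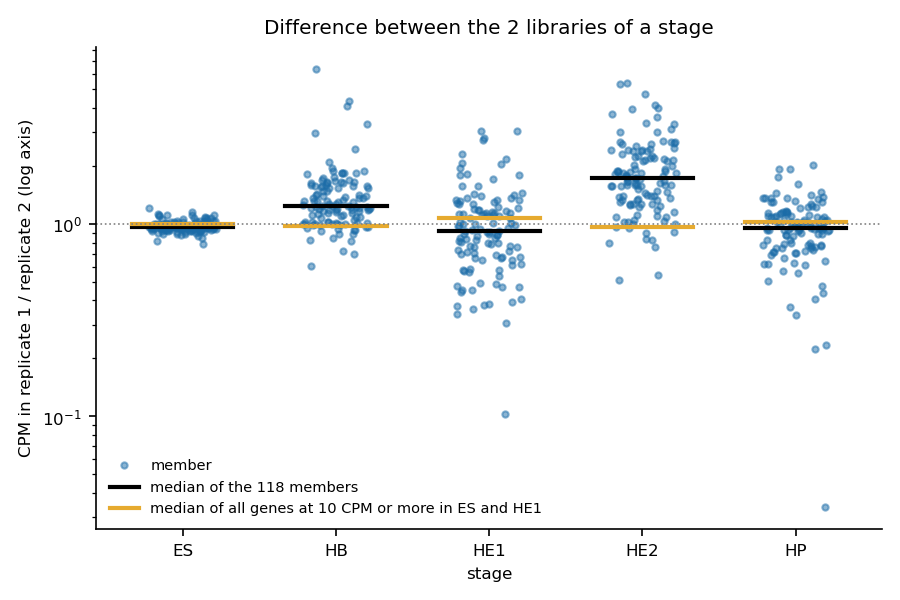
Ratio of CPM in replicate 1 to replicate 2 on a log axis for each of the 118 genes in each stage, with the median of the 118 (black) and of all genes at 10 CPM or more in ES and HE1 (orange). In HE2 the median of the 118 is 1.72 and in HB 1.24, and the orange lines lie between 0.966 and 1.07.

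In HB, too, replicate 1 was above replicate 2 in 99 of the 118 genes, with a median of 1.24-fold, while over genes at 10 CPM or more in ES and HE1 the median was 0.979-fold and 43.2% were higher in replicate 1. HE1 libraries differed by over 2-fold in 25 genes, 17 of them higher in replicate 2 and 8 higher in replicate 1, and the largest difference was that of Arc. Arc, a synaptic protein of the immediate early response, was at 31.4 and 30.6 CPM in ES, 1.08 and 0.625 CPM in HB, 3.42 and 33.4 CPM in HE1, 1.85 and 0.348 CPM in HE2, and 1.22 and 1.08 CPM in HP. Both HE1 libraries were above both HB libraries, but only replicate 2 reached 10 CPM. When HE1 was read from replicate 1 alone, on the same scale, 15 genes no longer met the rule, among them Arc, F3, Cdh3, Epha2 and Fblim1, and from replicate 2 alone 9 did not, among them Adgrg1, Bcl3, Icam1, Nr5a2 and Syt13.

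The 5 ES markers Pou5f1, Sox2, Nanog, Zfp42 and Esrrb were summed to see how much ES RNA the later libraries held. Relative to the ES libraries the sum was 5.04% and 3.80% in HB, 0.322% and 3.42% in HE1, and at most 0.309% in the HE2 and HP libraries. Most of the sum in HB was Pou5f1, with 62.8 and 52.9 CPM, against 2.82 and 26.3 CPM in HE1. Without it the sum was 36.0 and 21.6 CPM in HB and 3.49 and 40.7 CPM in HE1, so that HE1 replicate 2 was above both HB libraries. The part of ES RNA in the levels of the 118 genes was not tested.

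Of 8 endothelial markers only Pecam1 was among the 118, and the sum of the 8 was 417 and 437 CPM in ES, 365 and 334 CPM in HB, and 3770 and 2232 CPM in HE1. Mesodermal markers were at 2433 and 2953 CPM in HB and 18.6 and 19.9 CPM in ES, and blood markers at 1470 and 1258 CPM in HP and 151 and 147 CPM in HB, so that each stage carried the markers of its label. Markers of cardiac or smooth muscle, of which Acta2 and Tagln are among the 118, summed to 31.6 and 32.3 CPM in HB. The sums were 633 and 1001 CPM in HE1 and 754 and 362 CPM in HP. They were mostly Acta2 (403 and 569 CPM in HE1) and Tagln (211 and 350 CPM). Both were chosen by the rule, so nothing is read from this rise. Of the markers outside the 118, Tnnt2 went from 2.15 and 1.32 CPM in HB to 16.0 and 74.25 CPM in HE1. Myl7 went from 11.5 and 16.0 CPM to 0.379 and 1.42 CPM, and Myh6 and Myl4 were low in both stages. Fibroblast markers, none of which is a member, went from 98.9 and 100.3 CPM to 409 and 914 CPM in HE1 and 748 and 403 CPM in HP. Endoderm markers were at 236 and 246 CPM in HB and 237 and 159 CPM in HE1. HE1 replicate 2 was thus the lower one in the endothelial sum and the higher one in the muscle and fibroblast sums. The fibroblast difference was mostly Col1a1 (176 and 671 CPM). Pdgfrb, Postn and Col3a1 were also higher in replicate 2, while Col1a2 (154 and 132 CPM) and Dcn, near 0, were lower. The part of muscle or fibroblast cells in the result was not tested.

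A total of 14 gene lists were examined for members, which make up 0.752% of the matrix. Only the 8663 genes at 10 CPM or more in ES and HE1 could be members. These held 39 of 46 actin, 24 of 29 YAP and TEAD, 17 of 28 AP-1 and 13 of 35 endothelial genes. Of the interferon list they held 13 of 30, of epithelial junctions 11 of 31 and of pluripotency 5 of 27. Calls in the lists are to be read beside those over all tested genes, 17.3% lower and 11.5% higher from ES to HB and 12.7% higher and 8.19% lower from HB to HE1. Among 46 genes of the actin cytoskeleton and caveolae, 6 met the rule (Anxa1, S100a6, Ahnak, Tagln, Plec and Palld). Called higher in HE1 than in HB were 30 of the 46, with a median log2 change of 1.61 beside 0.04 over all tested genes, and 1 was called lower. At the step from ES to HB 10 were called lower and 6 higher, with a median of -0.29. Tagln, the smooth muscle protein transgelin, was at 71.1 and 77.1 CPM in ES, 12.9 and 7.64 CPM in HB, 230 and 404 CPM in HE1, 227 and 126 CPM in HE2, and 232 and 120 CPM in HP. Acta2, smooth muscle actin, had 17.3 and 21.1 CPM in ES, 2.50 and 2.24 CPM in HB, 440 and 656 CPM in HE1, 460 and 291 CPM in HE2, and 560 and 277 CPM in HP.

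Large linker proteins of the cytoskeleton were among the 5 members with the highest CPM in HP, a scale that is not divided by transcript length. Ahnak, a scaffold beneath the plasma membrane, was at 1285 and 1418 CPM in ES, 341 CPM in both HB libraries, 1724 and 2110 CPM in HE1, 1346 and 777 CPM in HE2, and 1139 and 1271 CPM in HP. Macf1, which cross-links microtubules and actin, had 429 and 422 CPM in HB, 1705 and 1515 CPM in HE1, and 754 and 1040 CPM in HP. Plec, the cytolinker plectin, had 272 and 271 CPM in HB, 1347 and 1328 CPM in HE1, and 578 and 744 CPM in HP. Their HB libraries were within a few percent of each other and below each library of the other stages. Palld, the actin-bundling protein palladin, lay just inside the threshold and had 28.8 and 28.6 CPM in HB, 285 and 314 CPM in HE1, and 108 and 83.7 CPM in HP.

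The list of 29 YAP and TEAD genes had 4 members, Ccn2, Axl, F3 and Myof, and 16 of the 29 were called higher and 1 lower from HB to HE1. At the step from ES to HB 9 were called lower and 8 higher. Ccn2, the matricellular protein CTGF, was at 133 and 131 CPM in ES, 29.3 and 20.8 CPM in HB, 200 and 279 CPM in HE1, 136 and 37.8 CPM in HE2, and 58.9 and 43.4 CPM in HP. Axl, a receptor tyrosine kinase, had 19.7 and 20.9 CPM in ES, 6.24 and 6.76 CPM in HB, 47.1 and 122 CPM in HE1, and 27.8 to 46.5 CPM in the 4 later libraries. F3, the tissue factor that starts coagulation, was low throughout with 18.9 and 20.3 CPM in ES, 3.13 CPM in both HB libraries, and 8.14 and 18.0 CPM in HE1. Myof, the membrane repair protein myoferlin, had 20.6 and 20.7 CPM in HB and 76.7 and 132 CPM in HE1, and was back at 23.4 and 35.2 CPM in HP.

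Of 35 endothelial surface and junction genes 3 were members. In this list 18 were called higher and 5 lower at the step from ES to HB, and 30 were called higher and 0 lower from HB to HE1. Pecam1 (chr11:106654217-106750628), the junction protein CD31, was at 168 and 175 CPM in ES, 43.5 and 35.7 CPM in HB, 813 and 567 CPM in HE1, 519 and 355 CPM in HE2, and 253 and 241 CPM in HP. From HE1 to HP the log2 change was -1.44 (SE 0.23), and both HP libraries were above both ES libraries. Mcam, the adhesion molecule CD146, was at 116 and 122 CPM in ES, 10.8 and 8.28 CPM in HB, 107 and 97.1 CPM in HE1, 47.7 and 11.5 CPM in HE2, and 10.3 and 13.4 CPM in HP, so that HP and HB overlapped. Icam1, a ligand of leukocyte integrins, had 162 and 169 CPM in ES, 9.53 and 7.88 CPM in HB, 60.0 and 21.5 CPM in HE1, 35.5 and 26.7 CPM in HE2, and 22.4 and 21.7 CPM in HP.

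Of 27 pluripotency genes, 24 were called lower and 1 higher in HB than in ES. In HE1 3 were called higher and 6 lower than in HB, and the 2 members were Klf2 and Nr5a2. Klf2 (chr8:72319033-72321656) is a Kruppel-like factor known both from naive ES cells and from endothelium under flow. It was at 205 and 202 CPM in ES, 23.1 and 13.7 CPM in HB, 147 and 70.9 CPM in HE1, 81.6 and 33.9 CPM in HE2, and 20.7 and 27.2 CPM in HP. Replicate 1 was above replicate 2 in both HE1 and HE2, and the log2 change from HE1 to HP was -2.16 (SE 0.43). Nr5a2 (chr1:136842571-136960448), a nuclear receptor, had 68.6 and 66.6 CPM in ES, 1.30 and 0.778 CPM in HB, 18.0 and 6.57 CPM in HE1, 4.07 and 1.54 CPM in HE2, and 0.0604 and 1.79 CPM in HP, where the lower value stands for 2 counts. The 2 HP libraries were thus further apart than in any other of the 118 genes.

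The other lists held 1 member or none. Eda2r, a receptor of the TNF receptor family, was the only one of 24 p53 targets (4.17%), and it had 48.7 and 44.7 CPM in HB, 207 and 142 CPM in HE1, and 65.9 and 92.3 CPM in HP. Nqo1 was the only one of 23 NRF2 targets and metallothioneins (4.35%), with 13.6 and 12.0 CPM in ES, 1.37 and 0.747 CPM in HB, 14.2 and 12.6 CPM in HE1, 18.7 and 9.28 CPM in HE2, and 22.7 and 19.8 CPM in HP. None of the 28 AP-1 and immediate early genes met the rule, and of these 12 were called higher and 1 lower from ES to HB, then 4 higher and 3 lower from HB to HE1. The lists of interferon and MHC class I genes (30), the integrated stress response (21), lysosome (35), cholesterol and fatty acid synthesis (27), epithelial junctions (31) and CDK inhibitors and D cyclins (10) held no member either. In the epithelial junction list 24 of 31 genes were called lower and 0 higher in HB than in ES, and 5 were called higher and 8 lower from HB to HE1. For cholesterol and fatty acid synthesis 2 were lower and 3 higher at the first step, and 0 were higher and 13 of 27 lower at the second. For the stress response these counts were 7 lower and 2 higher, then 1 higher and 6 lower. The lysosome list had 13 lower and 4 higher, then 5 higher and 1 lower, and the interferon list 7 lower and 4 higher, then 8 higher and 5 lower. The CDK list had 2 lower and 2 higher, then 4 higher and 1 lower. The p53 targets had 8 lower and 1 higher, then 12 higher and 1 lower, the NRF2 targets 9 lower and 2 higher, then 6 higher and 1 lower, and the 24 JAK and STAT genes 6 lower and 3 higher, then 5 higher and 1 lower. Across all tested genes 737 were called both lower in HB than in ES and higher in HE1 than in HB.

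Relative levels before and after the dip also varied. In 72 of the 118 genes ES and HE1 were within 2-fold of each other. HE1 was at least 3 times ES in 12 genes, which include Acta2, Tagln, Pecam1, Axl and Palld, and ES was at least 3 times HE1 in 16, which include Nr5a2 and Icam1.

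The threshold cuts through a continuum. Just inside it were Nes (3.01), Palld (3.02), Adgrg1 (3.03), Bex1 (3.08) and Gm21969 (3.09), and just outside Jag2 (2.99), Laptm5 (2.94), Klhl8 (2.93), Acot7 (2.93) and Mmrn2 (2.91), where the numbers are the smaller of ES and HE1 over HB. Laptm5, a lysosomal membrane protein of blood cells, had a course like that of the rising genes, with 116 CPM in ES, 6.10 CPM in HB, 17.9 CPM in HE1, 116 CPM in HE2 and 165 CPM in HP as stage values of the matrix. Mmrn2, an endothelial matrix protein, reached 157 CPM in HE1 and was at 7.35 CPM in HP, under its 15.3 CPM in HB.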

How the data were processed

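The authors aligned the reads to mm10 with HISAT2 (v2.2.1) after trimming and used featureCounts (v2.0.1, reverse-stranded, exons of Ensembl genes) to count fragments, with a fragment over more than 1 gene counted for each. These deposited counts were not normalized and summed to 24920434 to 58782055 per library, so that 3 counts correspond to 0.051 to 0.12 CPM. The deposited matrix of the authors holds 1 expression score per stage, which equals 2 raised to the mean limma-voom log2 CPM over its 15686 genes to within 4.1e-08 on the log2 scale, and 90.7% to 92.6% of the counts fall on these genes. CPM of the 118 genes per library are given on this scale, and those of markers and of genes outside the matrix as TMM-scaled CPM over the tested genes.

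Counts were tested with edgeR (v4.0.16, quasi-likelihood, TMM, filterByExpr) in R (v4.3.3), with stage as the only term in all 10 libraries (22596 genes, 5 residual degrees of freedom, Benjamini-Hochberg adjustment). Calls needed an adjusted p under 0.05 and at least 2-fold. The fit was tested on simulated data. Alternatives were limma-voom (v3.58.1), DESeq2 (v1.42.0), total counts, no filter, 4 libraries, a replicate block, other limits of the rule and leaving out libraries. Members, the 14 gene lists and the motifs were chosen with earlier results of these data known. Genes named were the 20 with the deepest dip, the 5 with the highest HP level, the 5 with the lowest HP to HB ratio, those called between HP and HE2, those in a list and the 5 on either side of the threshold, with others named as chosen afterwards. Some of these genes are not reported here.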

Additional observations from a re-analysis of the deposited data

How the results depend on the processing

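The number of genes that met the rule was 113 with TMM-scaled mean CPM, 115 with total counts, 107 to 138 when a library of ES, HB or HE1 was left out on the scale of the matrix, a setting chosen after seeing the data, and 105 to 124 when it was left out with TMM-scaled mean CPM. It moved with the limits themselves, to 258 at a ratio of 2, 71 at a ratio of 4 and 76 at a level of 20 CPM. Leaving out libraries gave 57 to 88 genes with HE2 at least 3 times HB and 57 to 65 for HP on the scale of the matrix, and 59 to 88 and 58 to 65 with TMM-scaled mean CPM. For HP against HE2, the number of the 118 called higher was 1 with DESeq2 and 1 with no filter, and called lower 1 with limma-voom, 4 with DESeq2, 17 without the filter and 0 to 21 when a library was left out. For HE2 against HE1 the number called lower was 47 without the filter, 9 with only the 4 libraries compared and 6 to 64 when a library was left out. For HP against HE1 it was 35 to 65 when a library was left out, and for HP against HB 2 with limma-voom, 0 with total counts, 3 without the filter, 2 with only the 4 libraries compared and 0 to 2 when a library was left out. The numbers called higher in HE2 or HP than in HE1 and in HP than in HB stayed within 1.5 times under each alternative run. The cause of these shifts was not tested. No called change of a single gene reversed its direction.

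Deviations of libraries with the same replicate number correlated between -0.44 and 0.28, so the numbers show no common pairing across the stages. Such a range cannot tell whether libraries of some stages came from a shared culture. With a replicate block, 0 of the 118 were called in HP against HE2, 7 higher and 28 lower in HE2 against HE1, 6 higher and 59 lower in HP against HE1, and 73 higher and 1 lower in HP against HB.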

Other observations

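Of the genes of the count tables that are not in the matrix, 4 met the rule on their CPM from counts. One was the lincRNA Gm53, which was at 15.2 and 17.4 CPM in ES, 0.463 and 0.225 CPM in HB, 17.0 and 14.7 CPM in HE1, 6.95 and 1.21 CPM in HE2, and 2.24 and 2.73 CPM in HP. The others were Mir1668, whose counts may include reads of a host transcript, and the unclassified transcripts Gm37795 and B930086L07Rik.

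For the step from HB to HE, the authors listed 174 genes linked to enhancers that were open before the gene was expressed. Of the 118 genes, 32 are on this list (27.1% of the 118 and 18.4% of the list), where the whole matrix holds 15686 genes. All 118 were at 10 CPM or more in ES, so for them the lack of expression refers to HB and not to every earlier stage. The list was chosen on the same libraries with a limit on the level in HB and a significant rise of 2-fold from HB to HE. Both conditions resemble those of the rule, so this overlap is not independent of it and supports nothing.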
